A study of Ovis aries with 12 samples.

Results

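The motile cilia genes build and move the beating cilia of ependymal cells, and their levels were compared here between regions of the sheep hippocampus and between control and stressed ewes. Members were chosen by their symbols: those of the numbered DNAH, DNAI, CFAP, RSPH and TEKT families, together with DNALI1, FOXJ1, CCDC39, CCDC40, SPAG6, SPAG17 and HYDIN. The rule found 65 of the 33609 genes in the count table, of which 62 had enough reads to be tested among 17806 tested genes. Symbols do not tell which cells of the tissue express a member. The tissue came from 12 adult Ile-de-France ewes, 6 kept as controls and 6 exposed to chronic stress, and both the dorsal and the ventral hippocampus of every ewe were taken. RNA of 2 ewes was mixed in equal amounts for each library, which gave 4 groups of 3 libraries: dorsal control, dorsal stress, ventral control and ventral stress. A pool averages its ewes, so differences between single animals cannot be seen, and p-values measure the spread between pools. No genotype, transgene or drug is given for any group. Dorsal libraries carry the abbreviation DG, and the labels do not tell if the dissection went beyond the dentate gyrus.

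Ependymal cells line the brain ventricles, including the part of the lateral ventricle that the hippocampus faces, and carry tufts of beating cilia that move cerebrospinal fluid. A motile cilium is built on an axoneme, a ring of doublet microtubules around a central pair. Outer and inner dynein arms drive the sliding of the doublets, radial spokes and the central pair control the arms, and tektins and other inner proteins stabilise the doublet walls. FOXJ1 is the transcription factor that switches on the motile cilium programme. Epithelial cells of the choroid plexus, which is attached to the same ventricle, also have cilia and make transthyretin, the product of TTR.

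The total count per library ran from 12254743 to 53775720, and each dorsal control library was deeper than each dorsal stress library. Members took between 0.0780% and 0.1075% of a library's counts. CFAP36 alone held 19151 of the 55016 member counts in dorsal control 1, where FOXJ1 held 960. This share is therefore no measure of ependymal cilia alone. Levels are given as CPM, a count divided by the library size and scaled to a fixed depth, and differences as log2 fold changes with a standard error. Libraries of 1 group differed widely in all tested genes. The first principal component over all 12 libraries held 50% of the variance. It placed ventral control 1 (score -103) and ventral control 3 (score 105) at its ends. Some results that rest on these libraries are given with and without them. CFAP97D1 had 0 counts in every library, and 3 counts over the sum of all libraries would allow up to 0.0084 CPM, by counting error only. DNAH14 had 0 to 2 counts and TEKT5, a tektin, 0 to 9 counts per library, and these 3 genes were not tested.

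FOXJ1, the marker of multiciliated cells, was detected in all 12 libraries, with 156 to 1006 counts. The level of FOXJ1 in CPM was 18.9, 18.2 and 18.1 for dorsal control, 24.5, 19.4 and 13 for dorsal stress, 24.2, 8.78 and 4.37 for ventral control and 11.5, 6.52 and 6.38 for ventral stress. Ventral control 1 lay within the range of the dorsal libraries, and the other ventral libraries were lower than every dorsal library. FOXJ1 had a dorsal minus ventral log2 fold change of 0.89 ± 0.37 and did not pass the test (edgeR adjusted p = 0.296). Without ventral control 1 it was called, at 1.36 ± 0.27 (edgeR adjusted p = 0.0159). Without ventral control 3 it had 0.69 ± 0.29 (edgeR adjusted p = 0.297), and without both 1.15 ± 0.28 (edgeR adjusted p = 0.0643), and it was not called. In bulk tissue, the number of cells that express FOXJ1, their type and the RNA per cell cannot be told apart.

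The first comparison asked whether the cilia genes differ between the dorsal and the ventral hippocampus, as the mean of both conditions. Of the 62 tested members 5 were higher in dorsal tissue and 0 were lower: CCDC40, DNAH8, CFAP221, CFAP61 and DNAI2. They encode parts of the doublet ruler (CCDC40), the outer dynein arm (DNAH8, DNAI2), the central pair (CFAP221) and the radial spokes (CFAP61). These 5 are 8.06% of the members, where 1.44% of all tested genes were called higher and 3.07% lower at an edgeR adjusted p under 0.05. Positive log2 fold changes were found for 51 of 62 members, or 82.3%, against 47.3% of all tested genes. The members' median was 0.49 and the median of all tested genes -0.02. At an unadjusted p under 0.05, 22 members were higher and 0 lower, where 5.66% of all genes were higher and 8.09% lower.

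**Figure D1:**
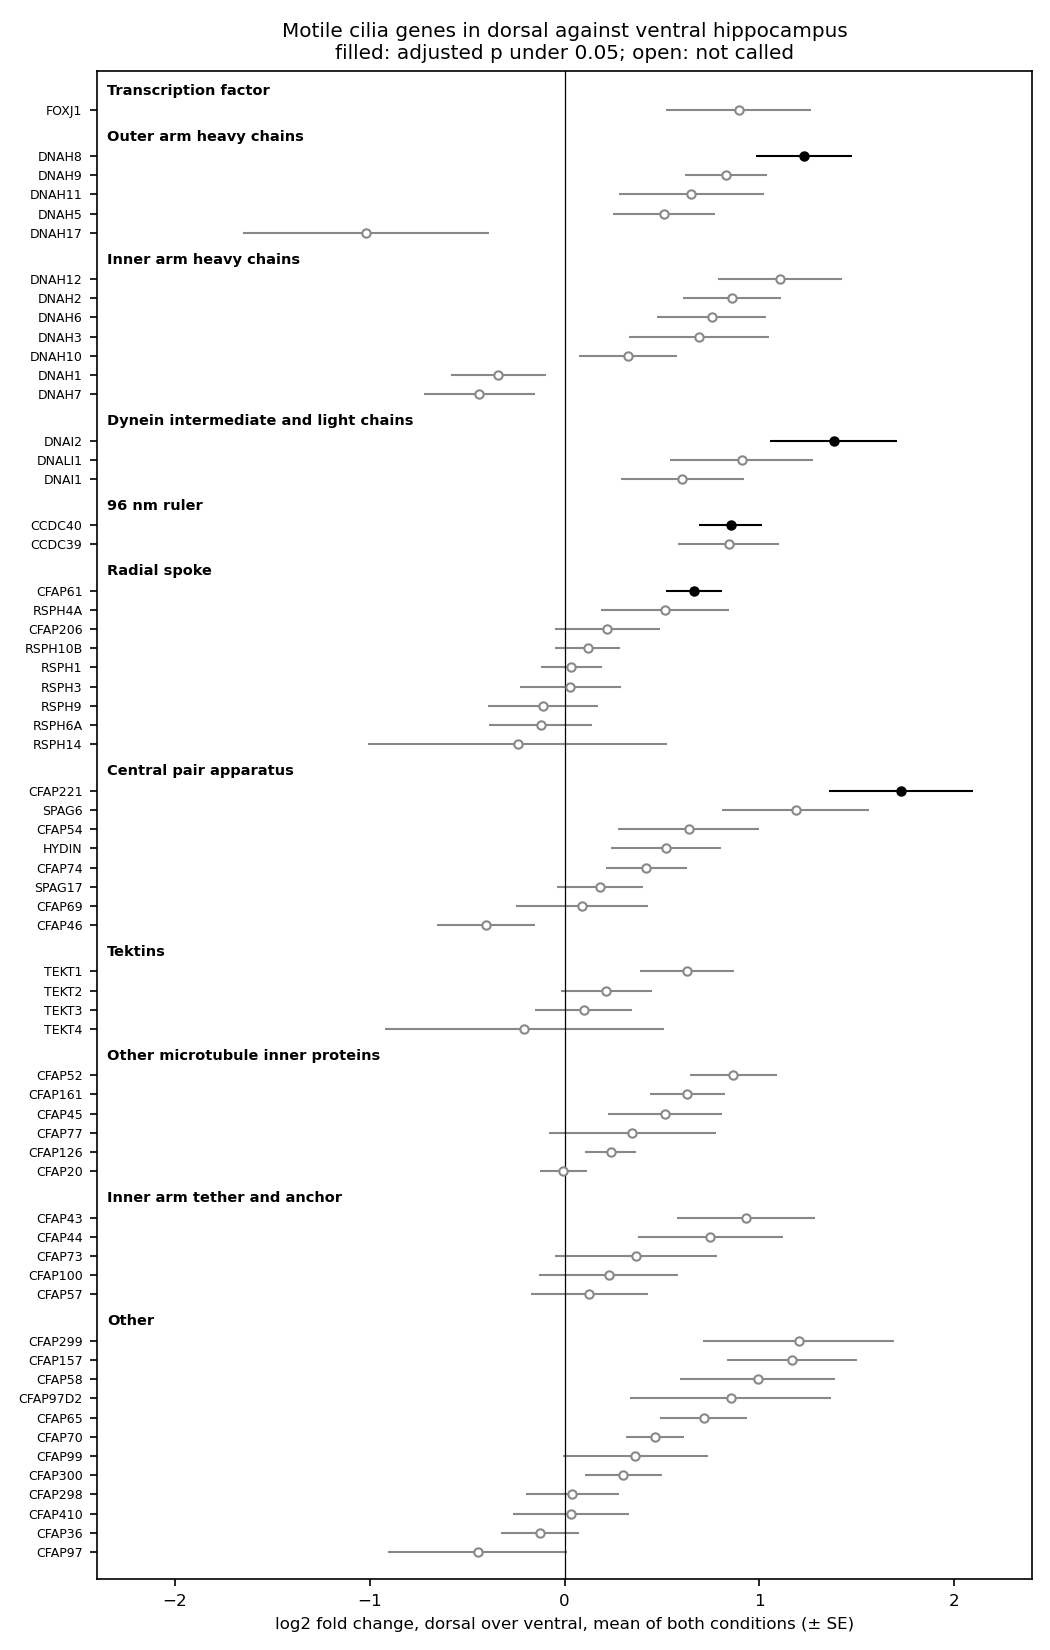
Dorsal minus ventral log2 fold change (horizontal axis, mean of both conditions, ± SE) of each of the 62 tested cilia genes, in blocks by role; filled points passed an adjusted p of 0.05 in edgeR. 51 points lie to the right of 0, and the 5 filled points lie between 0.66 (CFAP61) and 1.73 (CFAP221).

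CCDC40 acts with CCDC39 as the molecular ruler that sets where dynein arms and spokes attach. In CPM, CCDC40 measured 12.4, 14 and 13.9 in dorsal control, 13.5, 14.3 and 11.3 in dorsal stress, 9.69, 7.19 and 8.09 in ventral control and 8.05, 6.05 and 5.28 in ventral stress. The lowest dorsal library stood above the highest ventral one. CCDC40 was 1.81-fold higher in dorsal tissue, a log2 fold change of 0.85 ± 0.16 (edgeR adjusted p = 0.0133). It stayed called without each of the 12 libraries in turn, with adjusted p from 0.0105 to 0.0485. CCDC39, its partner, had 0.84 ± 0.26 (edgeR adjusted p = 0.111) and was not called. CCDC39 stood at 4.61, 10.4 and 8.36 CPM in dorsal control, 5.17, 9.43 and 8.5 in dorsal stress, 3.77, 3.92 and 6.61 in ventral control and 3.83, 4.23 and 3.64 in ventral stress. The ventral control 3 library lay above dorsal control 1 and dorsal stress 1, so the regions overlapped for CCDC39.

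DNAH8 and DNAI2 belong to the outer dynein arm, as a motor heavy chain and as an intermediate chain that anchors the motor. The level of DNAH8 in CPM was 4.59, 4.21 and 3.4 for dorsal control, 3.28, 3.19 and 3.92 for dorsal stress, 2.26, 0.992 and 1.32 for ventral control and 1.9, 1.86 and 1.25 for ventral stress. In CPM, DNAI2 measured 0.945, 1.37 and 1.8 in dorsal control, 0.846, 2.08 and 1.47 in dorsal stress, 0.625, 0.496 and 0.532 in ventral control and 0.735, 0.435 and 0.417 in ventral stress. For both genes each dorsal library was above each ventral library. The log2 fold change was 1.23 ± 0.25 for DNAH8 (edgeR adjusted p = 0.0184). DNAI2 had 1.38 ± 0.33 (edgeR adjusted p = 0.0369), on 10 to 61 counts per library. DNAH8 missed the threshold without dorsal control 2, dorsal stress 3 or ventral stress 3, with a highest adjusted p of 0.0529. DNAI2 missed it without 8 of the 12 libraries, with a highest adjusted p of 0.120; it was kept without dorsal control 1, dorsal stress 1, ventral control 1 or ventral stress 1.

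CFAP221 is a protein of the central pair and CFAP61 one of the radial spokes. CFAP221 stood at 2.28, 2.32 and 1.6 CPM in dorsal control, 2.29, 2.53 and 2.78 in dorsal stress, 1.25, 0.347 and 0.952 in ventral control and 0.813, 0.237 and 0.596 in ventral stress. The level of CFAP61 in CPM was 13.2, 13.1 and 12.5 for dorsal control, 11.6, 10.8 and 10.1 for dorsal stress, 7.09, 8.73 and 8.4 for ventral control and 8.05, 5.73 and 7.01 for ventral stress. Again no ventral library reached the lowest dorsal one. CFAP221 had the highest log2 fold change of the members, 1.73 ± 0.37 (edgeR adjusted p = 0.0244), on 6 to 116 counts per library. CFAP61 differed less but with a narrow spread, by 0.66 ± 0.14 (edgeR adjusted p = 0.0254). CFAP221 missed the threshold without dorsal control 1, dorsal control 2, dorsal stress 2, dorsal stress 3 or ventral stress 3, with a highest adjusted p of 0.0671. CFAP61 kept its call only without ventral control 1, ventral control 3 or ventral stress 1, and its adjusted p reached 0.0750 otherwise. The count of 5 called members became 1 without dorsal control 2, dorsal stress 3 or ventral stress 3 and 2 without dorsal stress 2. It became 3 without dorsal control 1, dorsal control 3, ventral control 2 or ventral stress 2. It was 4 without dorsal stress 1, 6 without ventral stress 1, 7 without ventral control 3 and 10 without ventral control 1. Calls of higher genes over all tested genes changed too, from 128 without dorsal control 2 to 397 without ventral control 1, against 257 with all libraries. With DESeq2 15 members (24.2%) were called higher and 0 lower, against 3.45% of all genes higher and 5.3% lower.

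**Figure D2:**
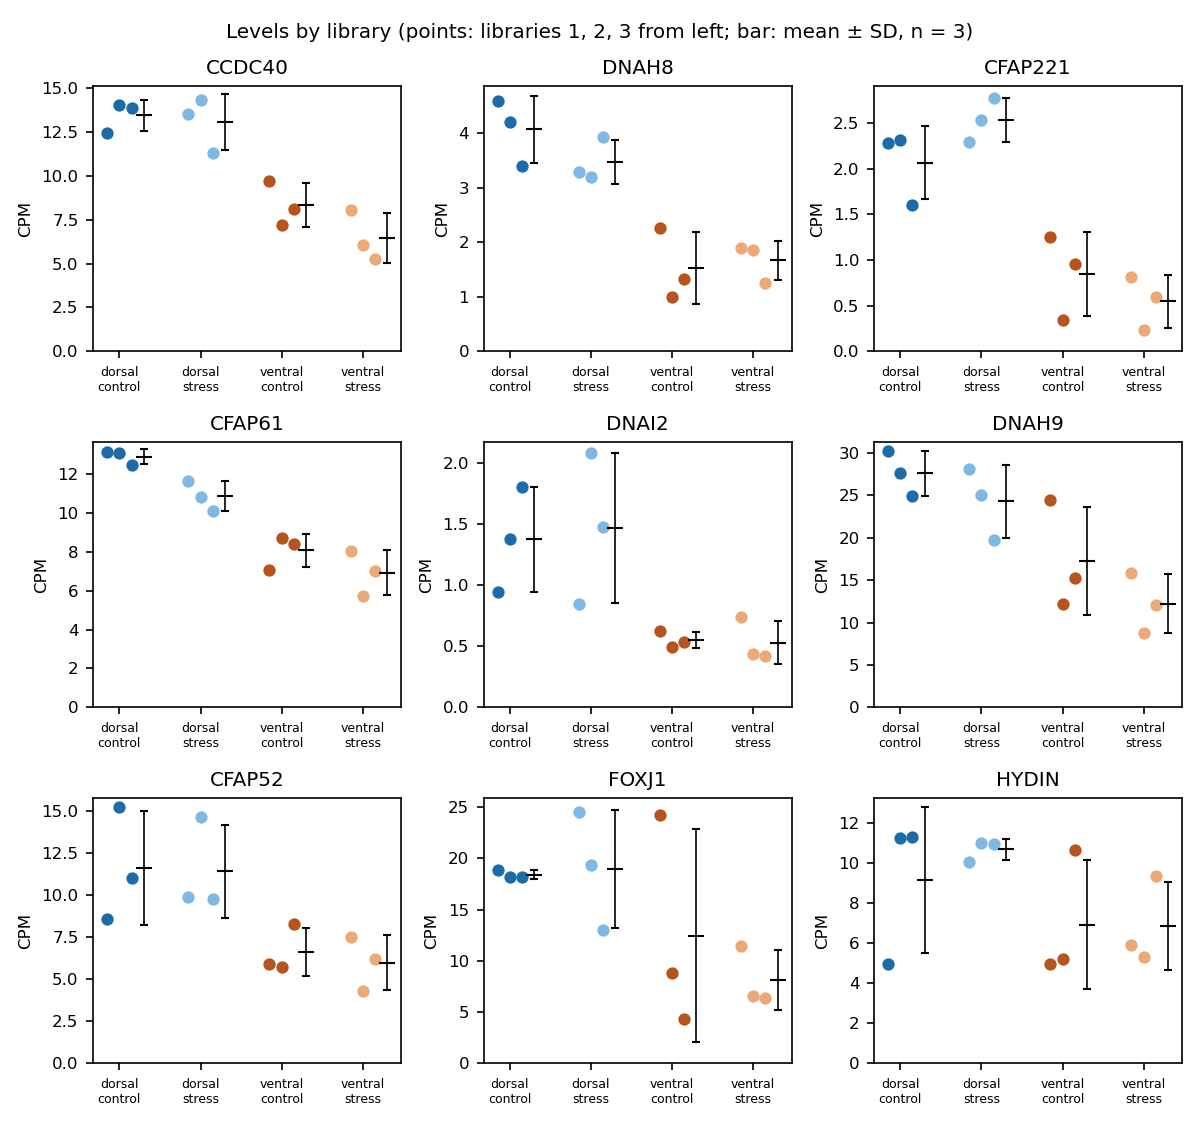
Level in CPM (vertical axis, from 0) of cilia genes in the 3 libraries of each of the 4 groups, with points for libraries and bars for mean ± SD. The dorsal and ventral libraries of CCDC40 do not overlap (lowest dorsal 11.3, highest ventral 9.69), whereas for FOXJ1 ventral control 1 at 24.2 lies among the dorsal libraries.

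The threshold fell between DNAI2 and the outer arm heavy chain DNAH9, which had 0.83 ± 0.21 (edgeR adjusted p = 0.0522). In CPM, DNAH9 measured 30.2, 27.7 and 24.9 in dorsal control, 28.1, 25.1 and 19.7 in dorsal stress, 24.4, 12.2 and 15.2 in ventral control and 15.8, 8.81 and 12.1 in ventral stress. Within each condition the dorsal libraries were above the ventral ones, though ventral control 1 exceeded dorsal stress 3. Without ventral control 1 DNAH9 was called, at 1.00 ± 0.19 (edgeR adjusted p = 0.0123). Without ventral control 3 it was not called, at 0.79 ± 0.23 (edgeR adjusted p = 0.0918). CFAP52, a protein inside the doublet wall, followed with 0.87 ± 0.22 (edgeR adjusted p = 0.0537). CFAP52 stood at 8.55, 15.2 and 11 CPM in dorsal control, 9.85, 14.6 and 9.72 in dorsal stress, 5.91, 5.71 and 8.26 in ventral control and 7.51, 4.27 and 6.17 in ventral stress. No ventral library of CFAP52 reached the lowest dorsal value. CFAP52 had 0.83 ± 0.24 without ventral control 1 (edgeR adjusted p = 0.0828). Without ventral control 3 it was called, at 0.96 ± 0.23 (edgeR adjusted p = 0.0458). Members whose dorsal libraries were all above the ventral libraries within both conditions numbered 11, against 2.70% of all tested genes, and 0 members were separated the other way. For 8 of them, CCDC40, CFAP221, CFAP52, CFAP61, CFAP70, DNAH2, DNAH8 and DNAI2, all 6 dorsal libraries were above all 6 ventral libraries, which held for 1.97% of all tested genes.

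Among the 5 tested outer arm heavy chains 4 had positive values (median 0.65), and DNAH8 was the member called. DNAH5, the motor present along the whole cilium, had 0.51 ± 0.26 (edgeR adjusted p = 0.468). The level of DNAH5 in CPM was 15.2, 25.7 and 22.5 for dorsal control, 16, 21.2 and 22.6 for dorsal stress, 10.1, 11.8 and 24.2 for ventral control and 13.4, 9.33 and 17.7 for ventral stress. Ventral control 3 exceeded all dorsal libraries but dorsal control 2, so the regions overlapped. DNAH11, a heavy chain of the proximal part of the cilium, had 0.65 ± 0.37 (edgeR adjusted p = 0.57), with levels from 1.69 to 6.05 CPM in dorsal and from 1.58 to 3.84 CPM in ventral libraries. DNAH17, known as a motor of the sperm tail, had the lowest fold change of the members, -1.02 ± 0.63 (edgeR adjusted p = 0.634), on 2 to 26 counts per library.

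The 7 inner arm heavy chains had a median of 0.69, with 5 positive and 0 called. DNAH12 had 1.11 ± 0.32 (edgeR adjusted p = 0.086) and DNAH2 0.86 ± 0.25 (edgeR adjusted p = 0.0932). In CPM, DNAH2 measured 4.17, 5.69 and 5.16 in dorsal control, 4.03, 4.26 and 4.9 in dorsal stress, 2.26, 2.83 and 2.63 in ventral control and 3.64, 1.26 and 2.86 in ventral stress. The highest ventral library of DNAH2 stood below the lowest dorsal one. DNAH7 (-0.44 ± 0.29) and DNAH1 (-0.34 ± 0.24) had negative values that did not pass. DNAH7 stood at 3.07, 4.79 and 2.81 CPM in dorsal control, 1.94, 4.26 and 3.51 in dorsal stress, 2.38, 4.86 and 6.19 in ventral control and 4.61, 4.78 and 4.8 in ventral stress. In the stressed ewes each ventral library of DNAH7 was above each dorsal library, while in the controls the regions overlapped. The inner arm light chain DNALI1 had 0.91 ± 0.37 and the outer arm intermediate chain DNAI1 0.61 ± 0.32, and neither was called.

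Of the 9 radial spoke genes CFAP61 was called. Positive values were found for 6 of 9, with a median of 0.04 and a range from -0.24 to 0.66. RSPH1, a spoke head protein, had 0.04 ± 0.16. The level of RSPH1 in CPM was 28.7, 26.4 and 26.1 for dorsal control, 25.1, 27.3 and 21.3 for dorsal stress, 32.1, 24.8 and 23.1 for ventral control and 30.3, 21.5 and 19.4 for ventral stress. All 4 groups overlapped for RSPH1. RSPH4A, also of the spoke head, had 0.52 ± 0.33 and RSPH9 -0.11 ± 0.28. The 8 central pair genes had 7 positive values and a median of 0.47, with CFAP221 called. SPAG6, a scaffold of the central pair, had 1.19 ± 0.38 (edgeR adjusted p = 0.125), at 3.23 ± 1.39 CPM in dorsal control, 3.97 ± 1.17 in dorsal stress, 1.46 ± 0.615 in ventral control and 1.68 ± 0.953 in ventral stress (SD, n = 3). HYDIN, a large protein of a central pair projection, had 0.52 ± 0.28, and SPAG17 0.18 ± 0.22, and neither was called.

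Of the tektins 3 of 4 had positive values and 0 were called. TEKT1 had 0.63 ± 0.24 (edgeR adjusted p = 0.237) and TEKT2 0.22 ± 0.23. In CPM, TEKT1 measured 19.3, 19.9 and 18.9 in dorsal control, 22.5, 16.2 and 12.9 in dorsal stress, 18.7, 9.67 and 10.7 in ventral control and 15.6, 7.86 and 8.59 in ventral stress. Ventral control 1 lay close to the dorsal control libraries for TEKT1, ventral stress 1 exceeded dorsal stress 3, and the other ventral libraries were below every dorsal one. The 6 other proteins of the doublet lumen had a median of 0.43, with 5 positive and 0 called, among them CFAP45 with 0.52 ± 0.29. All 5 genes of the inner arm tether and its anchor had positive values, with a median of 0.37 and 0 called. CFAP43 had 0.93 ± 0.35 and CFAP44 0.75 ± 0.37. Among the 12 tested members with no role assigned here 10 were positive and 0 were called, and CFAP97 had the lowest value, -0.45 ± 0.46.

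The region difference was then taken within each condition. In the control ewes the members' median was 0.39 (all tested genes -0.04), and 0.78 without ventral control 1 and 3 together. There 0 members were called by edgeR, where 1.00% of all genes were called in either direction. In the same ewes 12 members had an unadjusted p under 0.05 and were higher in dorsal tissue, against 3.25% of all genes. The dorsal libraries stood above the ventral ones for 14 members, against 5.44% of all genes, and below them for DNAH17. In the stressed ewes the median was 0.63 (all tested genes 0.01) with 0 members called, where 0.444% of all genes were. There 14 members were higher at an unadjusted p under 0.05, against 3.07% of all genes. The groups were separated with dorsal higher for 24 members, against 6.07% of all genes, and with dorsal lower for DNAH7. DESeq2 called 3 members (4.84%) higher in the controls, against 1.4% of all genes, and 4 (6.45%) in the stressed ewes, against 1.1% of all genes. CCDC40 had 0.69 ± 0.23 in the controls and 1.02 ± 0.23 in the stressed ewes. CFAP221 had 1.26 ± 0.51 and 2.19 ± 0.53, respectively.

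Library by library, the median deviation of the 62 members from their own means was 0.12, 0.46 and 0.33 in dorsal control and 0.17, 0.40 and 0.11 in dorsal stress, in log2 units. It was 0.20, -0.46 and -0.10 in ventral control and -0.13, -0.38 and -0.37 in ventral stress. All 6 dorsal libraries were above 0, and ventral control 1 was the one ventral library above 0. The highest level of a member was in a dorsal library for 47 of 62 members, or 75.8%, against 36.2% of all tested genes. The lowest level was in a ventral library for 53, or 85.5%, against 64.3% of all tested genes. Dorsal control 2 held the highest level of 16 of the 62 members, against 4.26% of all tested genes. Ventral stress 2 held the lowest level of 18, against 6.05% of all tested genes.

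**Figure D3:**
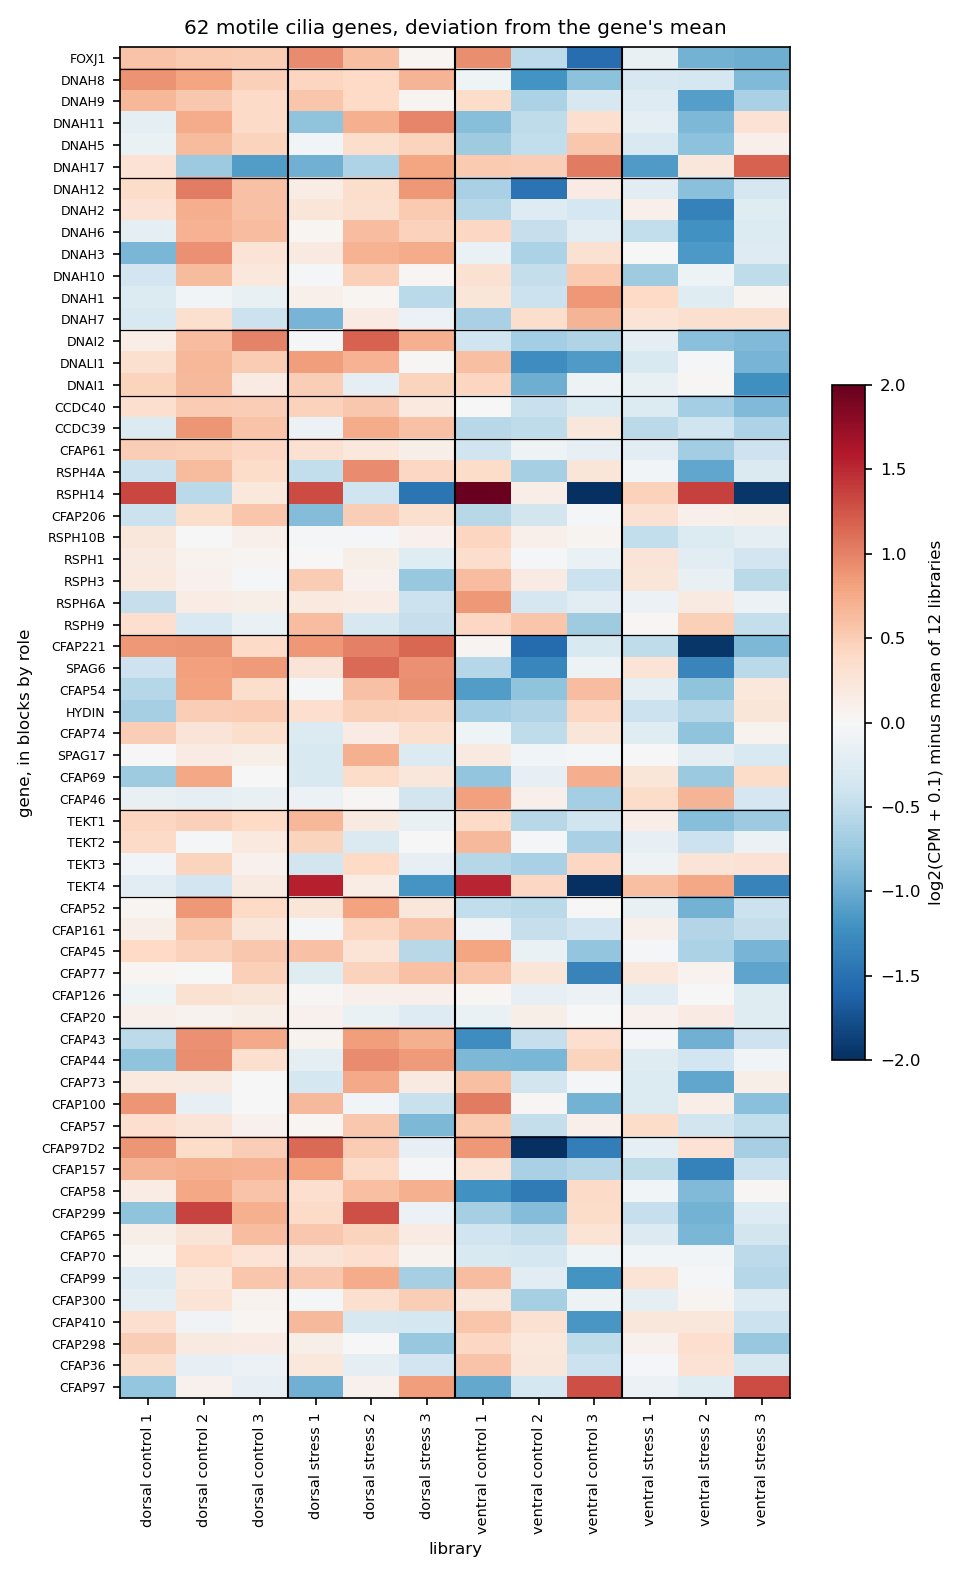
Deviation of log2(CPM + 0.1) from the gene's mean over the 12 libraries, for the 62 tested cilia genes (rows, in blocks by role) in each library (columns). By library, the median deviation is above 0 in all 6 dorsal columns. Ventral control 1 holds the highest level of 10 of the 62 members and of 20.4% of all tested genes.

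**Figure D4:**
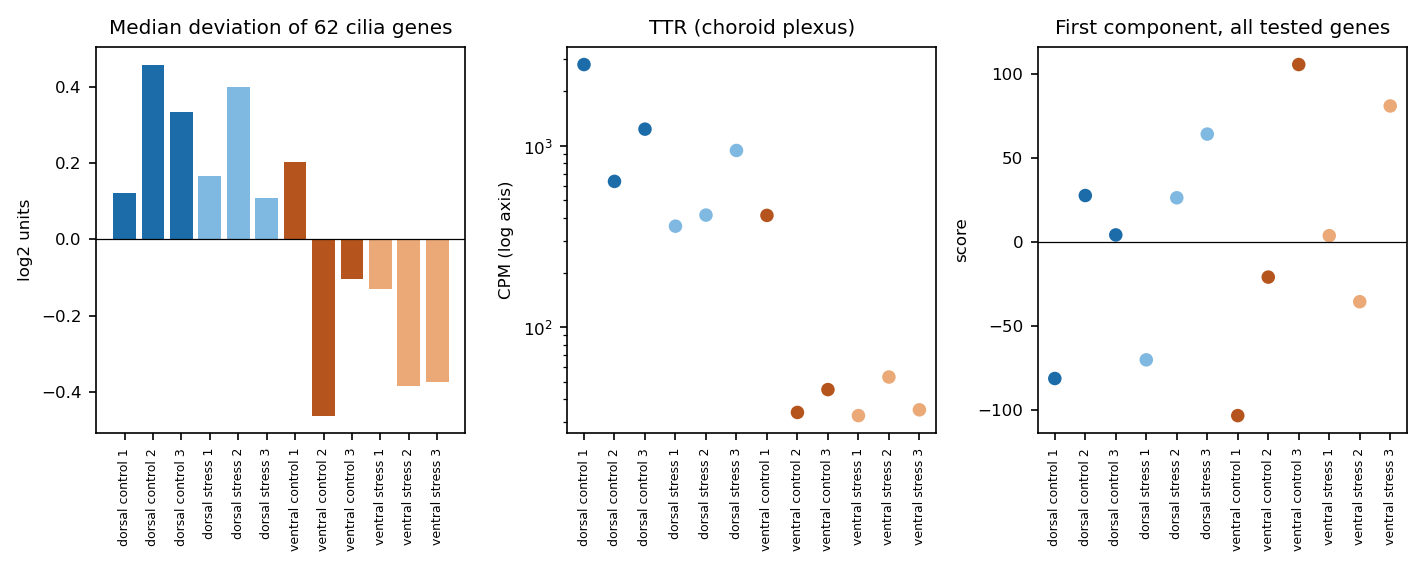
For each of the 12 libraries, the median deviation of the 62 cilia genes (bars, log2 units), the level of the choroid plexus gene TTR (points, CPM on a log axis) and the score on the first component of all tested genes (points). The bars range from -0.46 (ventral control 2) to 0.46 (dorsal control 2), TTR from 32.5 to 2806 CPM, and the score from -103 to 105.

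Members did not all move the same way between libraries of 1 group. Between ventral control 3 and ventral control 1, the ends of the first component, 12 members differed by more than 1 log2 unit upwards and 16 downwards, 19.4% and 25.8%, against 26.7% and 24.9% of all tested genes. RSPH14, a radial spoke gene, was lower by 4.47 log2 units and FOXJ1 by 2.45 in ventral control 3, while CFAP97 was 2.31 and the central pair gene CFAP54 1.75 log2 units higher there. RSPH14 stood at 25.5, 6.84 and 11.6 CPM in dorsal control, 25, 7.6 and 3.6 in dorsal stress, 39.9, 11.1 and 1.74 in ventral control and 13.9, 25.9 and 2.53 in ventral stress. RSPH14 varied over a wide range within every group, and its region fold change was -0.24 ± 0.77. The 12 dynein heavy chains had a median of 0.50 between these 2 libraries, with 3 above 1 and 0 below -1. The members' median SD within groups was 0.47 log2 units, and that of all tested genes 0.50.

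**Figure D5:**
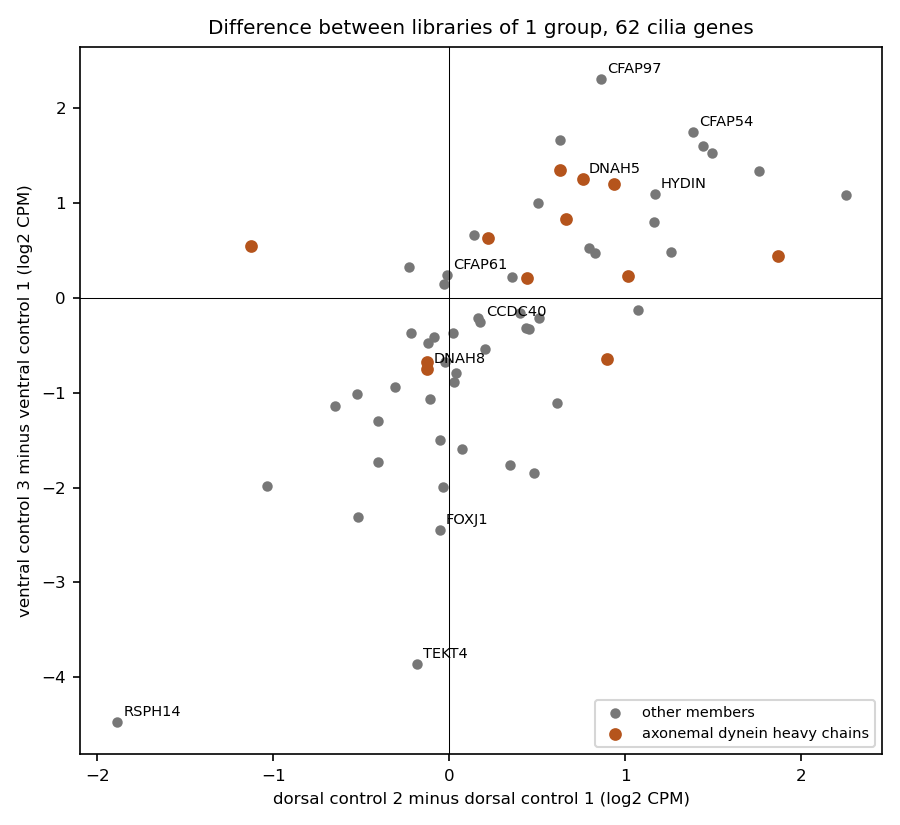
Difference in log2 CPM between dorsal control 2 and dorsal control 1 (horizontal axis) and between ventral control 3 and ventral control 1 (vertical axis) for the 62 cilia genes, with dynein heavy chains in orange. RSPH14 lies lowest at -4.47 and CFAP97 highest at 2.31 on the vertical axis, and none of the 12 heavy chains is below -1.

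The other question of the design was whether chronic stress changed the cilia genes. Taking stress minus control, edgeR called 0 members in dorsal tissue, in ventral tissue, in the mean of both regions and in the difference of the stress effects between regions, and 0% of all 17806 genes in each. DESeq2 also called 0 members in each, and over all genes 1 lower in dorsal and 1 lower in ventral tissue, 7 higher and 7 lower in the mean, and 0 in the difference. In dorsal tissue the members' median was -0.02 (all tested genes 0.01), and 0 members had an unadjusted p under 0.05, against 0.854% of all genes. In ventral tissue the median was -0.18 (all tested genes -0.03), and 1 member had an unadjusted p under 0.05, against 0.797% of all genes. Without ventral control 1 and 3 together that median was 0.14. For the mean of both regions the median was -0.09 and 0 members had an unadjusted p under 0.05, against 1.73% of all genes. The difference of the stress effects had a median of 0.16 (all tested genes 0.05) and 0 such members, against 0.258% of all genes; without ventral control 1 and 3 together its median was -0.14.

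The 1 member was RSPH10B, a radial spoke gene. The level of RSPH10B in CPM was 4.21, 3.62 and 3.87 for dorsal control, 3.48, 3.55 and 3.84 for dorsal stress, 4.86, 3.87 and 3.75 for ventral control and 2.52, 2.96 and 3.16 for ventral stress. Each ventral stress library was below each ventral control library, with a log2 fold change of -0.53 ± 0.24, while the dorsal groups overlapped. CFAP206, which anchors a radial spoke, was separated the other way in ventral tissue, at 0.49 ± 0.38. In CPM, CFAP206 measured 3.25, 5.69 and 6.57 in dorsal control, 2.39, 6.23 and 5.56 in dorsal stress, 2.98, 3.42 and 4.31 in ventral control and 5.5, 4.74 and 4.83 in ventral stress. These 2 were the ventral members whose groups did not overlap, against 2.86% of all tested genes. In dorsal tissue the stress libraries were below the control libraries for CFAP298 and CFAP61, against 5.13% of all tested genes separated in either direction. CFAP61 had -0.25 ± 0.20 there and CFAP298, which takes part in dynein arm assembly, -0.45 ± 0.34. FOXJ1 had 0.04 ± 0.52 in dorsal and -0.62 ± 0.52 in ventral tissue. Its ventral value was 0.31 without ventral control 1.

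Other genes of the cilium were counted in the same region comparison. Of 76 tested genes for other axonemal and dynein assembly proteins 65 had positive values, with a median of 0.29, and 1 was called higher, NME9 (0.95 ± 0.23, edgeR adjusted p = 0.0461). Of 18 tested genes of the same families that the table lists under older symbols 13 were positive, with a median of 0.31 and 0 called. The 11 tested regulators of multiciliated cells and centriole amplification had 9 positive values, a median of 0.30 and 0 called. The 52 genes of the primary cilium, the single sensory cilium that neurons and glia also carry, had 30 positive values, a median of 0.03 and 0 called.

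Ependymal markers, of which FOXJ1 is 1, were all tested: 10 of 12 had positive values, with a median of 0.56, and 0 were called. Their summed level was 310 to 396 CPM in dorsal and 221 to 472 CPM in ventral libraries, so the regions overlapped. FAM216B had 0.99 ± 0.33, TMEM212 0.66 ± 0.37 and CCDC153 0.06 ± 0.35. The markers with negative values, named after they were seen, were RARRES2 (-0.47 ± 0.59) and RIIAD1 (-0.04 ± 0.35). Of 12 tested choroid plexus markers 4 were called higher in dorsal tissue (TTR, CLIC6, AQP1 and CLDN2) and 1 lower (SOSTDC1). Their summed level was 395 to 2859 CPM in dorsal and 77.6 to 435 CPM in ventral libraries. TTR stood at 2806, 636 and 1236 CPM in dorsal control, 360, 415 and 943 in dorsal stress, 413, 33.9 and 45.3 in ventral control and 32.5, 53.1 and 35 in ventral stress. TTR was higher in ventral control 1 than in dorsal stress 1, and the remaining ventral libraries were far below all dorsal ones. OTX2, a defining transcription factor of the choroid plexus, had no count in dorsal stress 1, ventral control 2, ventral control 3, ventral stress 1 and ventral stress 2. The defining markers KL (-1.69 ± 0.65), KCNJ13 (-0.14 ± 0.31) and FOLR1 (1.01 ± 0.33) were not called. With log2 CPM of TTR as a covariate 0 members and 0 of all tested genes were called by edgeR, and 14 members and 1783 genes had an unadjusted p under 0.05. CCDC40 then had 0.76 ± 0.35 and FOXJ1 -0.13 ± 0.65. Of the other members called without a covariate, DNAH8 had 0.38 ± 0.43 and CFAP221 1.09 ± 0.76 with TTR. CFAP61 had 0.97 ± 0.31 and DNAI2 1.38 ± 0.73 in that fit. With the mean of the choroid plexus markers as a covariate 13 members (21%) were called higher and 1 (1.61%) lower, CFAP97, against 14.4% and 17.3% of all genes. FOXJ1 then had 2.00 ± 0.54 (edgeR adjusted p = 0.0304) and was among those called higher. Of other cell types, all 5 oligodendrocyte markers had positive values, with MOBP called higher, and all 5 meningeal markers negative values, with 4 called lower (COL1A1, COL1A2, DCN and SLC6A13). Of the neuronal, astrocyte, microglial and endothelial markers 0 were called. TTR and the summed choroid plexus markers were themselves higher in dorsal than in most ventral libraries. Fits with TTR or the marker mean as a covariate therefore cannot separate region from choroid plexus content. What share of the cilia gene differences goes with the cell types in each dissection was not tested.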

How the data were processed

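RNA sequencing was done on 12 libraries of pooled RNA. The authors deposited raw counts per gene, with 1 column per library. Per the labels' protocols RNA was extracted with TriReagent and libraries made with a stranded mRNA kit; the submitters' processing notes name featureCounts 2.0.0, SAMtools 1.9, Bowtie2 2.3.5.1, TopHat2 2.1.1, FastQC and bcl2fastq 2.20. With build, annotation and strand setting not given in the sources used here, antisense genes and near copies cannot be told apart from a member, and no coordinates or sequences are printed. Symbols of all 65 members matched the RefSeq table of ARS-UI_Ramb_v3.0.

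The counts were fitted with edgeR 4.0.16 (R 4.3.3): filterByExpr, TMM, 4 group means, robust quasi-likelihood F tests, p adjusted by Benjamini-Hochberg across the 17806 genes tested, called under 0.05. The standard error is the log2 fold change divided by the root of F. CPM uses TMM-scaled libraries, and log2 CPM a prior count of 2. Each comparison shares libraries with others, and the region comparisons set tissue of the same ewes side by side; the labels do not say whether pools match between regions. No 2 libraries of a group agreed within sampling noise.

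The alternatives run were DESeq2 1.42.0, a replicate block, RLE in place of TMM, omitting the filter, requiring 1 CPM in 3 libraries, the choroid plexus marker mean as a covariate and leaving out each library. Added after seeing the data were the first within-group component or TTR as a covariate and leaving out ventral control 1 and 3 together. Members and lists were chosen with earlier results of these data known. Members were named by a rule: a set list, all called, and the highest, lowest and smallest p of each comparison. DNAH12, DNAH2, DNAH1, CFAP70, CFAP54 and RSPH14 were named after their values were seen.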

Additional observations from a re-analysis of the deposited data

How the results depend on the processing

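The 5 members called higher between regions became 3 with no filter, 15 with DESeq2, 13 with the choroid plexus marker mean, 27 with the first within-group component and 0 with TTR as a covariate, and 1 member was called lower with the marker mean. Over all genes these covariates gave 2572 higher and 3082 lower calls (marker mean), 1827 and 1934 (component) and 0 (TTR), against 257 and 546, and DESeq2 gave 614 and 944. Leaving out 1 library gave 1 to 10 members. RLE gave 6, the 1 CPM filter 5 and leaving out ventral control 1 and 3 together 6. Over all genes RLE gave 267 higher and 541 lower calls, and the 1 CPM filter 264 and 522. Leaving out the 2 libraries gave 219 and 497 over all genes, and no filter 204 and 485. The median stayed between 0.37 and 0.66 under every alternative run. In control ewes the 0 called members became 3 with DESeq2 (1.4% of all genes higher), 8 higher and 1 lower with the marker mean (10.3% and 14.2% of all genes), 7 with the component (5.3% of all genes higher) and 0 to 1 without 1 library, and the median 0.78 without ventral control 1 and 3. In stressed ewes they became 4 with DESeq2 (1.1% of all genes higher) and 10 with the component (3.76%), and the median 0.32 with TTR. Without ventral control 1 and 3 the ventral stress median was 0.14 and that of the difference of stress effects -0.14. The causes were not tested.

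The replicate number as a block gave 4 called members, CCDC40, CFAP221, DNAH8 and DNAH9. Over all genes the block gave 292 higher and 531 lower calls. CFAP61 (edgeR adjusted p = 0.0551) and DNAI2 were not called. Deviations of same-numbered dorsal and ventral libraries correlated at 0.717, -0.119 and 0.373 in controls and 0.208, -0.234 and 0.761 in stressed ewes, and not every library correlated best with its own number (dorsal control 2 and ventral control 3, 0.679). The numbers were therefore not used as pairs, and whether pools match between regions is not known from the labels. All other calls of members were the same under the block.

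Of named members, some changed sign. Between regions (mean), with TTR these were FOXJ1 (-0.13), DNAI1 (-0.15), DNALI1 (-0.15), RSPH1 (-0.21), TEKT2 (-0.49), CFAP45 (-0.030), CFAP97 (0.83) and DNAH7 (0.63). With the marker mean they were DNAH5 (-0.22), DNAH11 (-0.65), HYDIN (-0.091), RSPH9 (0.84) and CFAP44 (-0.13). Without 1 library SPAG17 ranged from -0.034 to 0.28, RSPH1 from -0.027 to 0.14, RSPH9 from -0.32 to 0.022 and CFAP97 from -0.70 to 0.033. In control ewes TEKT4 had 3.57 with the marker mean, 0.11 with the component and -1.34 to 0.32 without 1 library; CFAP97 had 0.74 with TTR, 0.11 without ventral control 1 and 3 and -0.93 to 0.41 without 1 library. In stressed ewes DNAH7 had 0.47 with TTR, CFAP46 0.060 with the marker mean and DNAH17 -1.67 to 0.26 without 1 library. For stress in dorsal tissue TEKT4 had -1.58 with the marker mean, and without 1 library TEKT4 ranged from -0.24 to 1.26, CFAP97 from -0.11 to 0.75 and DNAH17 from -0.67 to 1.20. For stress in ventral tissue CFAP58 ranged from -0.041 to 1.26 and FOXJ1 from -1.02 to 0.31 without 1 library, and without ventral control 1 and 3 CFAP221 had 0.66, DNAH10 0.051 and DNAH9 0.0054. For the mean of both regions CFAP97 ranged from -0.042 to 0.78, SPAG6 from -0.019 to 0.41 and TEKT4 from -0.29 to 0.79; TEKT4 had -0.64 with the marker mean and CFAP100 0.18 with TTR. In the difference of stress effects TEKT4 had -1.87 with the marker mean, and CFAP221 -0.37 and DNAH10 -0.085 without ventral control 1 and 3. Over all 12 libraries and with no covariate, edgeR called none of these members in the comparison in which it changed sign; FOXJ1 was called between regions without ventral control 1, with the marker mean and with the component, and CFAP97 was called lower with the marker mean. In the shallowest library 1 CPM is 12.3 counts, which limits genes of low level such as DNAH17, DNAI2 and CFAP221.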
